A study of Mus musculus with 2 samples.

Results

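Ribosomal protein genes, cytosolic and mitochondrial, were compared between the livers of calorie-restricted and ad libitum fed mice. Members were the probe sets whose only platform gene symbol was Rpl, Rps, Mrpl or Mrps followed by a number, without the Rps6k kinases and without symbols holding -ps. The rule took 258 of 45101 probe sets, which belong to 123 of 18193 genes. Of these genes, 24 carry Rpl symbols (cytosolic large subunit), 23 Rps (cytosolic small subunit), 47 Mrpl (mitochondrial large subunit) and 29 Mrps (mitochondrial small subunit).

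Calorie-restricted (CR) mice received 20% less food in week 1 and 40% less over the 11 weeks that followed, and the control mice ate ad libitum (AL) for the same 12 weeks. All animals were males of the inbred strain C57BL/6J, housed singly from 8 weeks of age and 5 months old by their labels. For each diet, equal amounts of liver RNA from 3 mice were combined, and each pool was run on 1 Affymetrix expression array. With 1 pool and 1 array per diet, variation between mice cannot be estimated and no test was possible, so every difference describes these pools alone. Differences are given as log2 intensity, CR minus AL, and each gene takes the value of its brightest probe set by the mean of both arrays. A gene counted as measured where the higher of its values reached an intensity of 7.38, the median of all values. In bulk liver RNA, fewer cells of a type and less RNA per cell cannot be told apart.

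The cytosolic ribosome translates the messages of the nuclear genome, and its small subunit decodes while its large subunit joins amino acids. Mitochondria hold a separate ribosome of bacterial descent that translates only the few messages of the mitochondrial genome, which encode subunits of the respiratory chain and the ATP synthase. All proteins of both ribosomes covered here are encoded in the nucleus. Messages of cytosolic ribosomal proteins typically begin with a terminal oligopyrimidine (TOP) tract, a C followed by a run of pyrimidines, through which mTORC1 and the RNA-binding protein Larp1 control their translation.

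Short sequences at annotated gene starts are shown first, because TOP tracts at the annotated start were found in cytosolic members only, and because members of both ribosomes hold an ETS core. Each runs 5′ to 3′ on the gene's strand over 20 bases before and 20 from the start, and comes from RefSeq on GRCm38.p6. The build used for the array design is not given in the sources used here. Capitals mark the TOP tract in the first 4. Within the printed bases only Rpl38 of these also holds the ETS core described next, in lower case. In the 300-base windows described below all 4 hold that core, and all 4 had positive differences. Rps10 and Rps27, measured members with such a tract that are not printed, had negative ones, -0.33 and -0.08.
Rpl35 (chr2:39005112-39005151, minus strand): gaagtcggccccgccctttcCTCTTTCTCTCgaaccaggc
Rpl38 (chr11:114668560-114668599, plus strand): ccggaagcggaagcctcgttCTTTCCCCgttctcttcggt
Rps6 (chr4:86857348-86857387, minus strand): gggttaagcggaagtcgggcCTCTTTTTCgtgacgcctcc
Rps18 (chr17:33955646-33955685, minus strand): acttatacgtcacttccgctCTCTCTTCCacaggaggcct

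In the next 9, capitals mark CCGGAAG or its complement CTTCCGG, the core bound by ETS family transcription factors. The first 4 are cytosolic members and the last 5 mitochondrial members. Mrpl33 and Mrpl52 had positive differences, 0.13 and 0.24, as had Rpl38 at 0.19, and the other 7 of these 9 had negative ones.
Rpl11 (chr4:136053374-136053413, minus strand): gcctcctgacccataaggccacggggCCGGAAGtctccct
Rps27l (chr9:66946066-66946105, plus strand): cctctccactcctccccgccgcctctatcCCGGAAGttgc
Rps3a1 (chr3:86142649-86142688, minus strand): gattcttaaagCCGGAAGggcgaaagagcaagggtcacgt
Rps7 (chr12:28635934-28635973, minus strand): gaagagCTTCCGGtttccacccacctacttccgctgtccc
Mrpl3 (chr9:105053248-105053287, plus strand): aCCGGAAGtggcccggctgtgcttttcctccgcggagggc
Mrpl57 (chr14:57826219-57826258, plus strand): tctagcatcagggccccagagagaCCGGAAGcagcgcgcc
Mrps26 (chr2:130563737-130563776, plus strand): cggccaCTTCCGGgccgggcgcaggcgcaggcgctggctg
Mrpl33 (chr5:31613931-31613970, plus strand): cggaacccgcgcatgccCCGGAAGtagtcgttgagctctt
Mrpl52 (chr14:54426889-54426928, plus strand): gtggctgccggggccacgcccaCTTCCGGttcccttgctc

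Of the 123 genes, 119 were measured. The 4 others were Rpl14, Rpl3l (the muscle form of Rpl3), Rpl39l (a testis form of Rpl39) and Rps16, with intensities of 3.76 to 5.96 in CR and 3.79 to 6.83 in AL. Many cytosolic ribosomal proteins are missing from the members. In the platform annotation 30 further Rpl or Rps symbols occurred only on probe sets with several symbols, against 2 Mrpl or Mrps symbols. Another 15 of the 47 cytosolic members had such probe sets beside their own. For these 15 the value given may come from a minor probe set, as the low intensities of Rpl12 (10.3 in CR and 9.44 in AL) show.

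Cytosolic ribosomal protein genes lay around 0, whereas most mitochondrial ones were lower in the CR pool. In the brightest class of genes defined below both lay around 0, with medians of -0.01 over 35 cytosolic and 0.01 over 30 mitochondrial members. The 43 measured cytosolic members divided into 21 below 0 and 22 above, with a median of 0.03. Of 76 mitochondrial members, 55 lay below 0 and 21 above, with a median of -0.25. Over all 12644 measured genes the median was -0.02 and 52.1% lay below 0. The cytosolic minus mitochondrial difference of medians was 0.28. In the 14 alternative settings it ran from 0.10 after averaging the probe sets within genes to 0.41 with plain probe sets alone. Averaging took all probe sets of a gene, also those below the intensity limit. Centring the arrays, scaling on controls and counting Mrps18a and Mrps30 as large subunit are among these settings but cannot change it. The medians of large and small subunits differed less. The cytosolic large and small subunit medians were -0.01 and 0.05, and those of the mitochondrial large and small subunits -0.28 and -0.19. The cytosolic subunit difference, -0.07, was 0.08, of opposite sign, after that averaging.

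**Figure D1:**
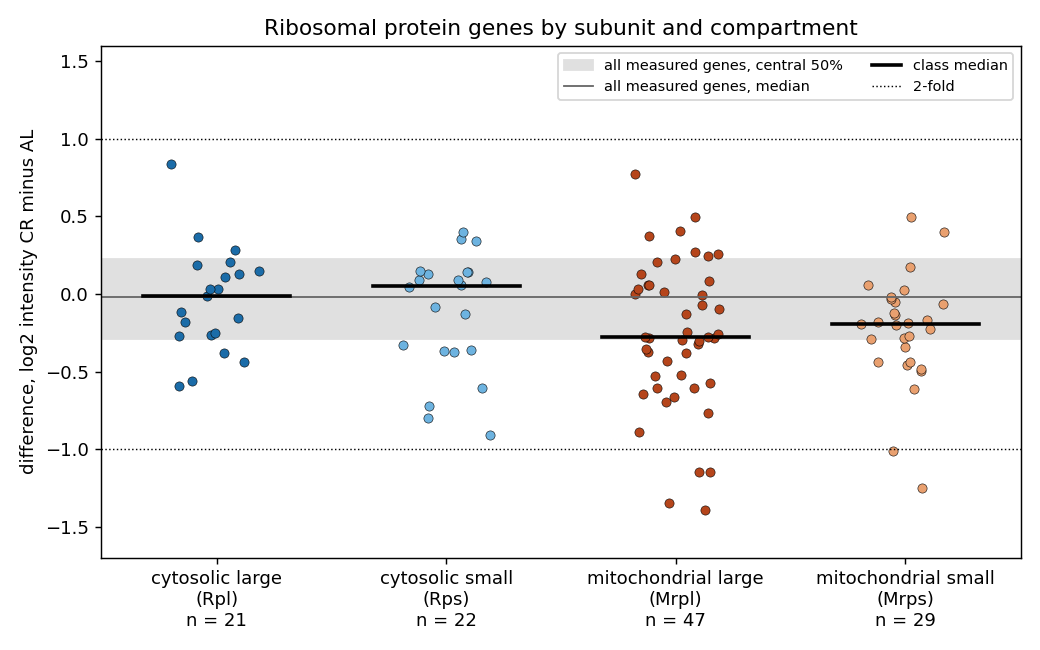
Difference (log2 intensity, CR minus AL) of each measured ribosomal protein gene by class, with class medians as black bars and the central 50% of all measured genes as a grey band. Points are genes, not replicates. The mitochondrial medians of -0.28 and -0.19 lie below the all-gene median of -0.02, and the 6 points below the lower 2-fold line are all mitochondrial.

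No member was at least 2-fold higher in CR, against 1.8% of all measured genes, and 6 were at least 2-fold lower, against a background of 2.79%. All 6 were mitochondrial, which is 7.89% of 76. At 1.5-fold, 5 cytosolic members (11.6%) were lower and 1 (2.33%) higher. Of the mitochondrial members, 14 (18.4%) were at least 1.5-fold lower and 1 (1.32%) higher. The same threshold took 9.49% of all measured genes on the lower side and 6.76% on the higher side, so the cytosolic share of lower genes was near the background.

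The lowest values by brightest probe set, -1.39 and -1.35, were in the mitochondrial large subunit. After averaging probe sets only the small subunit symbols Mrps18a and Mrps18b remained past 2-fold, at -1.25 and -1.02. Each of them has 1 probe set, so averaging cannot change its value, and the subunits cannot be compared in this way. Mrpl1, which forms the stalk that moves with the exiting tRNA, had an intensity of 11.2 in CR and 29.4 in AL, a difference of -1.39. Its other measured probe set stood at -0.29. The average, which also takes a probe set below the intensity limit at 0.05, was -0.54. Mrpl27, whose bacterial counterpart reaches toward the peptidyl transferase centre, had 42.5 in CR and 94.4 in AL, a difference of -1.15 (other probe set -0.21). Both were lower in CR on every measured probe set, by unequal amounts. Mrpl19, of a bacterial protein family at the subunit interface, had 17.5 in CR and 38.8 in AL, a difference of -1.15 (other probe set -0.48). Mrpl42, an addition of the mitochondrial ribosome with no bacterial counterpart, had 5.28 in CR, below the intensity limit, and 13.4 in AL. Measured against the limit it was at least 1.82-fold lower in CR, so its place among the 2-fold genes rests on a value below the limit.

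Others of the large subunit were lower by 1.5-fold or more. Mrpl46, a protein of the central protuberance, had 60.6 in CR and 112 in AL, a difference of -0.89 on its only probe set. Mrpl50 stood at -0.77 (other probe set -1.0) and Mrpl40, also of the central protuberance, at -0.70. Mrpl57, Mrpl14, Mrpl3 and Mrpl16 lay between -0.66 and -0.60. Of these, Mrpl3 had a further probe set of opposite sign, 0.38, at low intensity.

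The highest differences of the large subunit were smaller. Mrpl9 had 149 in CR and 87.5 in AL, a difference of 0.77, but its other measured probe set, with 46.9 in CR and 59.9 in AL, stood at -0.35. The brighter of these can match several transcripts, so the direction of Mrpl9 is not settled. Mrpl23, of the family that lines the exit of the polypeptide tunnel, had 146 in CR and 103 in AL, a difference of 0.50 on 1 probe set. Mrpl49 stood at 0.40 (other probe set -0.27) and Mrpl15 at 0.37, with 6 measured probe sets from -0.24 to 0.50. Mrpl47 stood at 0.27, and both of its measured probe sets were higher in CR. The brightest large subunit members barely differed. Mrpl39 had 1382 in CR and 1450 in AL, and Mrpl51 had 893 in both pools.

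In the mitochondrial small subunit 24 of 29 genes lay below 0. Mrps18a and Mrps18b, both descended from the bacterial S18 protein, stood lowest. Mrps18a had 11.9 in CR and 28.3 in AL, a difference of -1.25, and Mrps18b had 73.6 in CR and 149 in AL, a difference of -1.02, each on 1 probe set. The other S18 gene, Mrps18c, had 175 in CR and 204 in AL, a difference of -0.23. Despite its symbol, the Mrps18a protein sits in the large subunit, as does that of Mrps30, which stood at -0.17. Mrps7, whose bacterial counterpart binds the small subunit RNA early in assembly, had 52.1 in CR and 79.5 in AL, a difference of -0.61. Mrps10 stood at -0.50, and Mrps27, an RNA-binding pentatricopeptide repeat protein, at -0.48.

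On the other side of the small subunit, Mrps9 had 164 in CR and 116 in AL, a difference of 0.50, and its 4 measured probe sets were all higher in CR, from 0.23 to 0.50. Mrps24 had 374 in CR and 283 in AL, a difference of 0.40, against -0.82 on its dimmer probe set. Mrps25, with 3 probe sets from 0.18 to 0.62, was the only other member above 0.1, and Mrps35 and Mrps23 stood at 0.06 and 0.03. The symbol rule also took Mrps36, now assigned to the 2-oxoglutarate dehydrogenase complex and not to the ribosome, at -0.12.

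**Figure D2:**
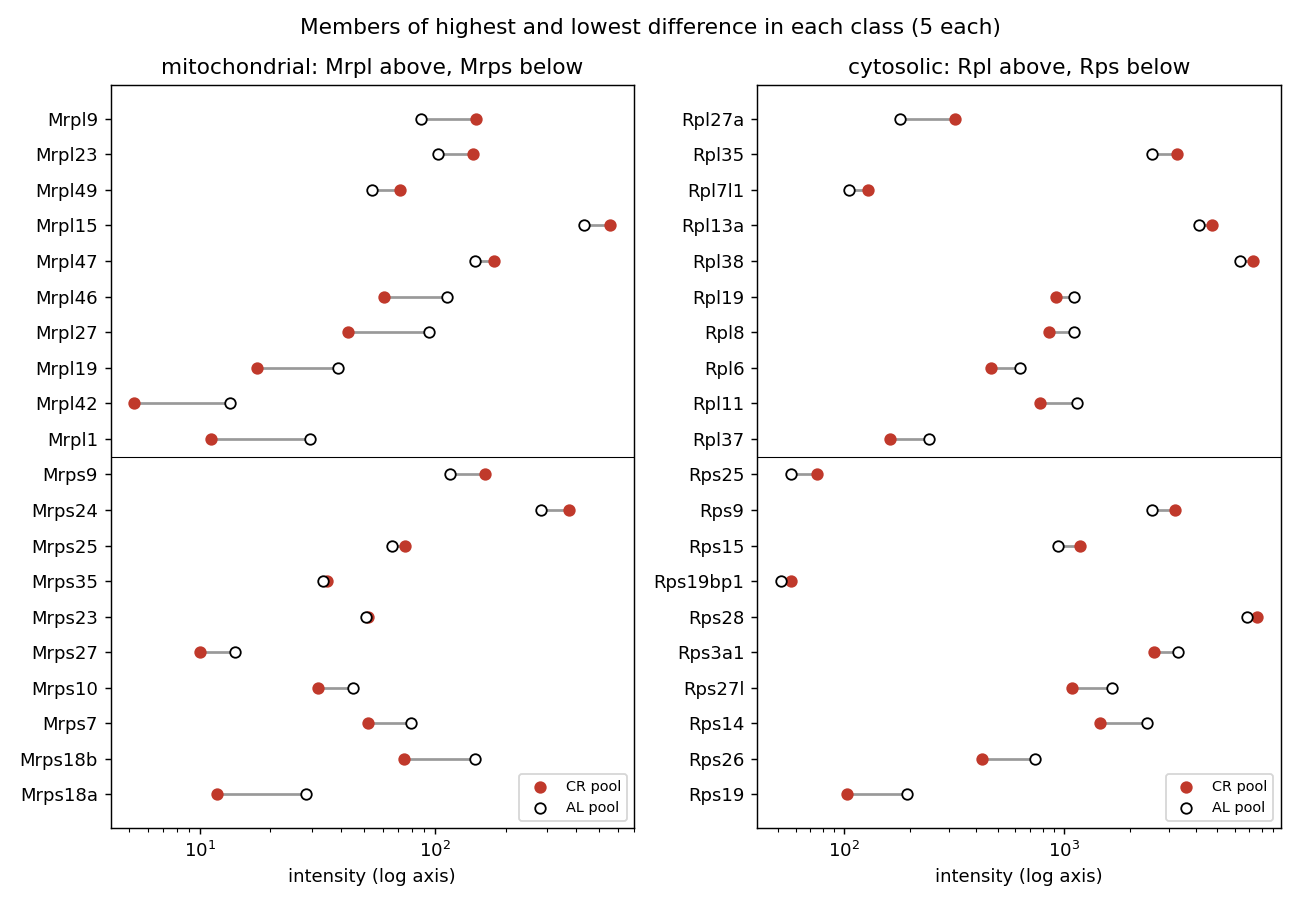
Intensity in the CR pool (filled) and the AL pool (open) of the 5 members of highest and the 5 of lowest difference in each class, on log axes, with mitochondrial classes on the left and cytosolic classes on the right. Each point is 1 array. Mrpl42 in CR (5.28) is the only plotted value under the intensity limit of 7.38, and the largest gaps belong to dim mitochondrial members such as Mrpl1 (11.2 in CR and 29.4 in AL).

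Members shared with bacteria and those added in mitochondria both had medians below 0. The 45 measured members of protein families shared with bacteria had a median of -0.27, with 33 below 0, and the 27 that only mitochondrial ribosomes carry had -0.17, with 18 below 0. Within the large subunit the medians were equal at -0.28 (28 and 17 genes). Within the small subunit they were -0.27 over 17 and -0.10 over 10 genes. The assignment of 4 members to either kind was not made.

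Brightness went along with the size of the difference among mitochondrial members. Measured genes were divided by mean log2 intensity into 5 classes of near equal size, and 30 mitochondrial members fell in the top class, which began at an intensity of 119. These 30 had a median of 0.01 with 14 below 0. The 46 in the 4 lower classes had a median of -0.37 with 41 below 0, and held all 14 members that were at least 1.5-fold lower. Of all measured genes, 892 of 10115 in the lower classes and 308 of 2529 in the top class were that much lower. Among all measured genes the corresponding medians were 0.01 in the top class and -0.03 in the lower classes, with 1231 of 2529 and 5358 of 10115 below 0. Of the 43 cytosolic members, 35 fell in the top class, with a median of -0.01 and 18 below 0. No lower class held more than 6 cytosolic members, so the compartments can be compared at like brightness mainly in the top class. The rank correlation of difference and mean intensity was 0.117 across the 43 cytosolic genes, 0.604 across the 76 mitochondrial genes and 0.0038 across all 12644. The cytosolic value differed by probe set type, as given below. The genes share the same 2 arrays and are not independent, so this is a description. Removing a loess trend fitted over all measured genes left the mitochondrial medians at -0.23 and -0.18.

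**Figure D3:**
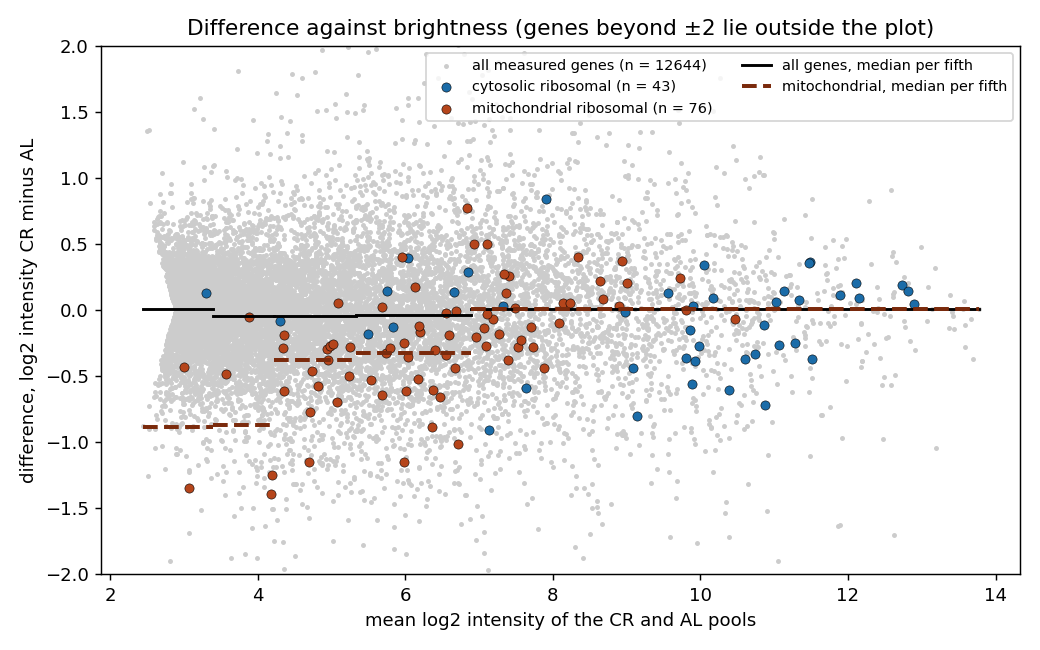
Difference (log2 intensity, CR minus AL) against mean log2 intensity for all measured genes (grey), cytosolic (blue) and mitochondrial (orange) ribosomal protein genes, with medians per intensity class for all genes (solid) and mitochondrial members (dashed). Dim mitochondrial members lie mostly below 0 and those of the top class scatter around 0. The 2 dimmest classes hold only 2 and 4 mitochondrial members.

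Probe set type moved with brightness. Of the mitochondrial members, 42 were represented by a plain probe set and had a median of -0.33, with 36 below 0 and median intensities of 52.8 in CR and 70.1 in AL. The 34 represented by probe sets of the types _x_at, _s_at or _a_at, which can match several transcripts, had a median of -0.03, with 19 below 0 and intensities of 146 in CR and 149 in AL. Over all measured genes both types had a median of -0.02. The rank correlation with intensity among mitochondrial members was 0.490 within the plain type and 0.486 within the other. Among cytosolic members it was 0.236 over 10 genes of the plain type and 0.549 over 33 of the other. The medians of these cytosolic genes were 0.13 and -0.01. Whether probe set type plays a part in the mitochondrial result was not tested.

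Probe sets of a gene often differed. Among 20 cytosolic members with several measured probe sets, 3 had all of them below 0, 4 all above and 13 both signs. Of 35 such mitochondrial members, 13 had all below, 4 all above and 17 both signs. The share with both signs was 48.6% for mitochondrial members, against 52.7% of all 4924 such genes. The median SD between probe sets of a gene was 0.25 for cytosolic and 0.33 for mitochondrial members, against 0.29 over all such genes.

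Cytosolic small subunit genes included the lowest cytosolic differences. Rps19, the gene most often mutated in Diamond-Blackfan anaemia in humans, had 102 in CR and 193 in AL, a difference of -0.91 on 1 probe set, and is among the 15 genes that also lie on probe sets with several symbols. Rps26, at the mRNA exit channel, had 426 in CR and 742 in AL, a difference of -0.80, also on 1 probe set. Rps14 had 1457 in CR and 2402 in AL, a difference of -0.72, but a second probe set of similar brightness, with 1870 in CR and 1747 in AL, stood at 0.10. The value of Rps14 therefore depends on the probe set. Rps27l, a p53-induced paralog of Rps27, had 1086 in CR and 1655 in AL, a difference of -0.61, and its 3 probe sets were all lower, from -0.72 to -0.35. Rps27 itself, on a dim probe set, stood at -0.08. Rps3a1 followed at -0.37.

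The highest small subunit differences were Rps25, needed for some internal initiation, at 0.40 with 75.1 in CR and 57.1 in AL, Rps9 at 0.35 (other probe set -0.08) and Rps15 at 0.34 (other probe set -0.18). Rps19bp1, at 0.15, matches the symbol rule but encodes a protein that binds Rps19 and is not a ribosomal protein. The brightest small subunit gene was Rps29, with 7708 in CR and 7465 in AL, and Rps28 stood at 0.14 with 3 probe sets from 0.14 to 0.21. Rps6, the substrate of the S6 kinases, had 107 in CR and 96.7 in AL, a difference of 0.14. Rps18, widely used as a reference gene, stood at 0.08, the highest of its 4 measured probe sets, whose lowest was -0.96.

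In the cytosolic large subunit 1 gene was 1.5-fold higher and 1 lower. Rpl27a had 320 in CR and 179 in AL, a difference of 0.84 on its only measured probe set, and Rpl37 had 162 in CR and 244 in AL, a difference of -0.59. Both also lie on probe sets with several symbols, and leaving out all such genes left 18 of the 21 members past 1.5-fold, none of them Rpl. Rpl11, part of the 5S ribonucleoprotein that binds the p53 inhibitor Mdm2, had 778 in CR and 1145 in AL, a difference of -0.56. Rpl6, Rpl8 and Rpl19 stood at -0.44, -0.38 and -0.27, each on 1 probe set. Rpl35, which lies at the tunnel exit, had 3265 in CR and 2532 in AL, a difference of 0.37. Its 6 probe sets divided, with the 3 brightest from 0.34 to 0.37 and the others from -0.44 to 0.16. Rpl7l1, Rpl13a and Rpl38 stood at 0.28, 0.21 and 0.19, and the 4 probe sets of Rpl13a, another common reference gene, ran from -0.28 to 0.29.

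Paralogs, and counterparts in the other ribosome, gave these pairs of differences. Rpl22 and its paralog Rpl22l1 stood at -0.11 and 0.03, Rpl7 and Rpl7l1 at -0.01 and 0.28, and Rps4x and Rps4l at 0.09 and -0.13. Rpl39, with 42.3 in CR and 47.9 in AL, stood at -0.18 and its testis paralog was not measured. Between the ribosomes, Mrpl1 at -1.39 has Rpl10a at 0.03 as its cytosolic counterpart, and Mrpl2 at -0.30 has Rpl8 at -0.38. Mrpl11 and its counterpart Rpl12 stood at 0.22 and 0.13. Mrps12 and Mrps15, whose counterparts were not among the members, stood at -0.28 and -0.27.

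Probe sets that carry several symbols including a ribosomal one were not assigned to a gene, but they can be described together. The 99 measured ones with a cytosolic ribosomal symbol had a median of -0.07, with 56 below 0 and 43 above, and ran from -1.21 to 0.76. Of these, 13 (13.1%) differed by at least 1.5-fold in either direction, against 16.3% of all measured genes. The 4 with a mitochondrial ribosomal symbol were all below 0, with a median of -0.58. Ribosomal genes outside the symbol rule gave single values in both directions. Fau, which encodes ribosomal protein S30 fused to a ubiquitin-like protein, had 2551 in CR and 1237 in AL, a difference of 1.04. Rpsa stood at 0.49 and Rplp0, the scaffold of the acidic stalk, at -0.73, with 292 in CR and 484 in AL. Among 4 mitochondrial ones Ptcd3 stood at -0.89 (other probe set -0.21), Chchd1 at -0.71, Gadd45gip1 at -0.30 and Dap3, a small subunit protein that binds GTP, at 0.27.

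Promoter windows from RefSeq were matched by symbol for 108 of the 123 members, with 122 windows of 300 bases, 250 before and 50 from the annotated start. A C at the start followed by 4 or more pyrimidines, as in the TOP tracts shown for Rpl35 and Rps6, was present in 7 of 49 cytosolic windows (14.3%) and in 0 of 73 mitochondrial windows, against 2.51% of all 32851 windows. Annotated starts can lie some bases away from the true start, so a C followed by 5 pyrimidines was also sought from 5 bases before to 16 bases from the start. It was present in 18 of 49 cytosolic (36.7%) and 6 of 73 mitochondrial windows (8.22%), against 13.9% of all windows. The 6 measured cytosolic genes with the tract at the start itself had a median of 0.11 and the 31 without it 0.03. The subunits differed in order, with 0.28 over 2 Rpl genes with it and -0.11 over 17 without. For Rps the medians were -0.0033 over 4 genes with it and 0.08 over 14 without. Of these 6 genes all but Rps27 also hold the ETS core.

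The ETS core CCGGAAG, searched on both strands, was present in 38.8% of cytosolic and 34.2% of mitochondrial windows, against 8.86% of all windows. The cytosolic members with it had a lower median but ran from -0.80 to 0.84. Rpl11, Rps27l, Rps3a1 and Rps7, shown above, were among those below 0. Those above 0 were Rpl27a, Rps25, Rpl35, Rpl38, Rps6 and Rps18. The 18 measured cytosolic genes with the core had a median of -0.30 with 12 below 0, and the 19 without it had 0.11 with 5 below 0. Both subunits showed this order, with medians of -0.25 and 0.07 for Rpl and -0.36 and 0.13 for Rps. Among mitochondrial members the medians were -0.28 over 25 genes with it and -0.22 over 42 without, and among all measured genes -0.08 and -0.02. The motifs were looked for after the values were seen, and this division was not tested. On plain probe sets alone the cytosolic medians were 0.07 with the core and 0.11 without, over 8 genes each. They were -0.22 and 0.03 after averaging probe sets, and -0.30 and 0.11 without genes that also lie on several-symbol probe sets. The mitochondrial order turned in some alternatives, with -0.16 with the core and -0.21 without after averaging, and -0.26 and -0.35 on plain probe sets. The NRF1 core GCGCATGC lay in 4.08% of cytosolic and 11.0% of mitochondrial windows (2.71% of all), and the YY1 core AAGATGG in 16.3% of cytosolic and 17.8% of mitochondrial windows (6.34% of all). Cytosolic genes with the YY1 core also had the lower median, -0.11 over 7 genes against 0.07 over 30 without it. By subunit the medians were -0.36 over 3 and 0.09 over 15 for Rps, and 0.05 over 4 and 0.03 over 15 for Rpl. The ETS and YY1 cores shared bases in 0 of the 122 windows.

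**Figure D4:**
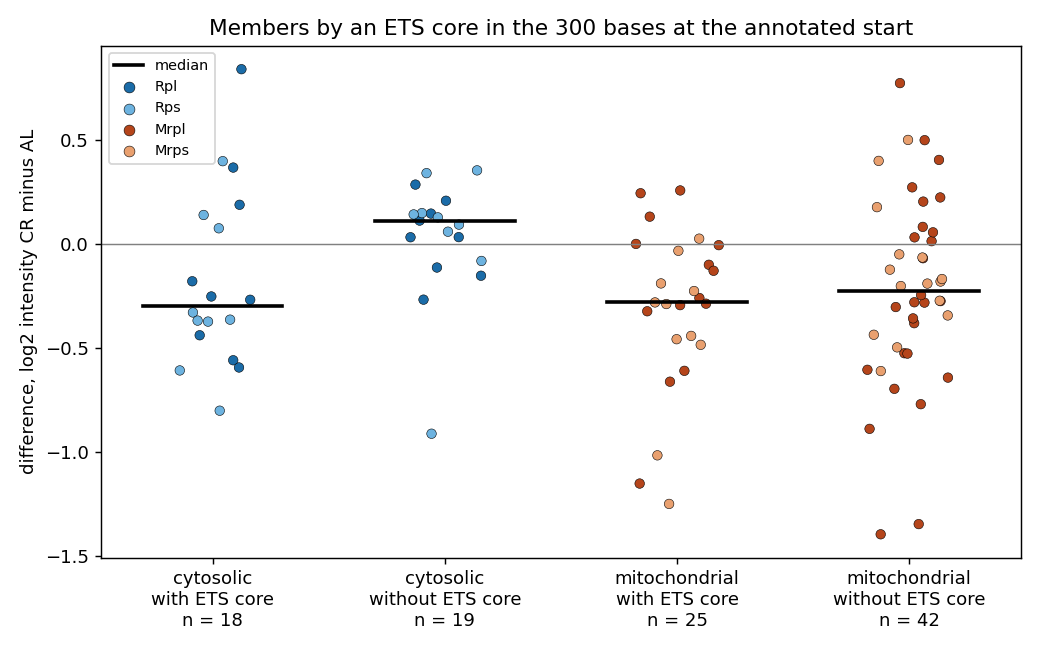
Difference (log2 intensity, CR minus AL) of measured members with and without an ETS core in the 300-base window at the annotated start, coloured by class, with medians as black bars. Cytosolic members with the core have a median of -0.30 and those without it 0.11, and the groups overlap. The mitochondrial medians are -0.28 and -0.22.

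Related machinery was described from lists outside the members. Of 25 measured mitochondrial translation factors and aminoacyl-tRNA synthetases, 21 lay below 0 with a median of -0.26, and the lowest were the synthetases Sars2 at -0.70 and Cars2 at -0.62. Hars2, at -0.50, had both probe sets below 0. At 1.5-fold, 2 of the 25 (8%) were lower in CR and 0 higher, against 9.49% and 6.76% of all measured genes. Mitochondrial ribosome assembly factors divided more evenly, with 12 of 22 below 0 and a median of -0.07. Mterf3, which acts in mitochondrial ribosome assembly and transcription, had 20.2 in CR and 39.8 in AL, a difference of -0.98, and the RNA methyltransferase Tfb1m and Rpusd4 stood at -0.57 and -0.54.

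For the cytosolic ribosome, 43 of 54 measured biogenesis factors lay below 0, with a median of -0.14, and 8 (14.8%) were at least 1.5-fold lower and 2 (3.70%) higher, against 9.49% and 6.76% of all measured genes. The assembly factor Rrs1 had 324 in CR and 571 in AL, a difference of -0.81 (other probe set -0.59). Mphosph10 stood at -0.72 (highest probe set 0.35), while the nucleolar protein gene Ncl had 250 in CR and 153 in AL, a difference of 0.71, with all 3 probe sets above 0. RNA polymerase I and III genes had a median of -0.10 over 25, among them Maf1, the repressor of polymerase III, at 0.89 (lowest probe set -0.38). Polr3k stood at -0.84 and the polymerase I factor Rrn3, below the intensity limit in CR, at -0.67. Translation factors and other genes of TOP messages, among them Npm1, Hnrnpa1 and Vim, had a median of 0.08 over 17, with Eef1d at 0.89 (lowest probe set -0.25), Eif3h at -1.12 and Eif3l at -0.55 (highest probe set 0.06). Of the 10 measured S6 kinase and regulator genes 7 lay below 0. Rps6ka3, a p90 kinase, had 42.3 in CR and 104 in AL, a difference of -1.31 (other probe set -0.23), and Mtor stood at -0.51 (other probe set 0.20). Rps6ka5 had 11.6 in CR and 7.04 in AL, the AL value being below the intensity limit, and stood at 0.72.

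**Figure D5:**
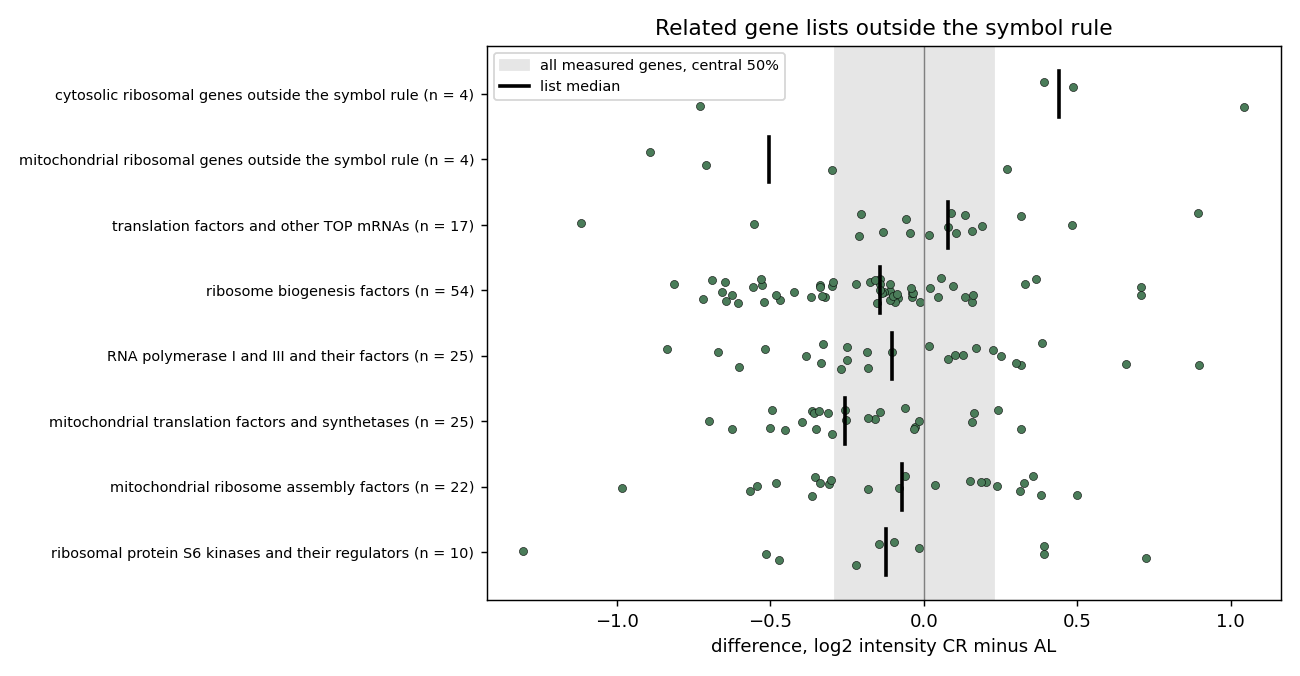
Difference (log2 intensity, CR minus AL) of measured genes in 8 lists of related genes, with list medians as black bars and the central 50% of all measured genes in grey. Mitochondrial translation factors (median -0.26) and ribosome biogenesis factors (median -0.14) lie mostly below 0, and translation factors with other TOP mRNAs have a median of 0.08.

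Array-wide facts that bear on these values are few. The 5 hepatocyte markers were all measured, with summed intensities of 39654 in CR and 41224 in AL. Neutrophil markers were lower in CR, with summed intensities of 25.7 in CR and 92.4 in AL over 3 genes. Only 2 of these were measured, and none exceeded 10.9 in CR. All 5 Kupffer cell markers lay below 0, with a median of -0.57 and sums of 1032 in CR and 1208 in AL. The measured cholangiocyte, endothelial and lymphocyte markers had medians of 0.29, 0.15 and 0.06 over 3, 4 and 3 genes, and 5 stellate cell markers -0.02. The part of these cell types in the ribosomal results was not tested. The ratio of 3′ to 5′ signal of beta-actin was 89.7 in CR and 83.5 in AL, and that of Gapdh 53.2 and 46.9, a strong 3′ bias in both pools. The beta-actin and Gapdh control probe sets were lower in CR, with medians of -0.83 and -0.85, and the part of RNA quality in the ribosomal results was not tested. The 18 hybridisation control probe sets had a median difference of 1.02, and scaling on them moved the median of all measured genes to -1.04, so each difference is read against that median.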

How the data were processed

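RNA pooled from 3 livers per diet was labelled from 6 ug of total RNA and run on 1 array per pool, per the labels' protocols. The deposited values are RMA intensities, as the submitters' processing notes name RMA. Medians of 7.42 in CR and 7.35 in AL and maxima of 14045 and 18092 show a linear scale. Software and version for RMA are not given in the sources used here. With 2 arrays in all, their number limits precision, and no detection calls were used.

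Values were turned to log2 and CR minus AL taken. Names came from the platform annotation, by probe sets with 1 symbol (34945, control probe sets left out). Of 18193 genes, 12644 reached the intensity limit of 7.38. The text names the 5 highest and 5 lowest members per class, every member past 1.5-fold, listed pairs, reference genes and 3 members per list. Members and lists were chosen with earlier results of these data known. Alternatives changed the probe set choice, the intensity limit (75th percentile, 21.0), scaling, a loess trend (span 0.4) and the members. The steps were tested on simulated data. Tables were handled with pandas 2.3.3 and numpy 2.4.6 in Python 3.11.15, the trend was fitted with statsmodels 0.14.6, and plots were drawn with matplotlib 3.10.9.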

Additional observations from a re-analysis of the deposited data

How the results depend on the processing

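With 1 array per diet no replicate could be left out. No paired analysis was possible because each group has 1 sample. Both mitochondrial medians stayed below 0 and the cytosolic minus mitochondrial difference above 0 in all 14 alternatives, while the cytosolic medians, near 0, changed sign in several. Centring, scaling on controls and counting Mrps18a and Mrps30 as large subunit cannot change the cytosolic minus mitochondrial difference. Mrpl42 and Mrpl54 lay below the intensity limit in CR, so only a bound on their fold can be given. The cause of these changes was not tested.

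Averaging all probe sets of a gene, also those below the intensity limit, gave -0.094 for Rps. The cytosolic large minus small difference was then 0.080 and cytosolic minus mitochondrial 0.10. With averaging, 2 members lay past 2-fold and 13 past 1.5-fold, in place of 6 and 21. Mrpl1 then stood at -0.54, Mrpl27 at -0.68, Mrpl19 at -0.40 and Mrpl9 at 0.19. Without _x_at, _s_at and _a_at probe sets Rpl stood at 0.11, the cytosolic subunit difference at 0.11, cytosolic minus mitochondrial at 0.41 and Mrpl9 at -0.35. With no intensity limit Rpl stood at 0.0094. Scaling on all hybridisation controls gave -1.03 for Rpl, -0.96 for Rps, -1.30 for Mrpl and -1.21 for Mrps, with 78 members past 2-fold and 115 past 1.5-fold, all lower, and Mrpl9 at -0.24 and Rpl27a at -0.18. Scaling on cre alone gave -0.39, -0.32, -0.65 and -0.56 for the same classes, with 14 and 55 members past these folds.

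The next alternatives were chosen after seeing the data. Without 6 paralogs the cytosolic subunit difference was -0.18. With genes whose probe sets have 1 sign, Rpl stood at -0.15, Rps at -0.082 and cytosolic minus mitochondrial at 0.17. Counting each measured probe set gave 0.016 for Rpl, -0.040 for Rps, 0.057 for the cytosolic subunit difference and 32 past 1.5-fold. Of 257 values for the 21 members past 1.5-fold under the other alternatives, each probe set counted left out, 206 moved by less than the median SD between probe sets, 48 moved by more in the same direction and 3 changed sign. The intensity limits and the alternatives that leave out or relabel genes cannot change a member's value. Centring shifts all values by the same small amount. The count of 206 is therefore no measure of stability.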
